A study of Mus musculus with 12 samples.

Results

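The 10 genes described here encode 6 receptors of the TNF receptor superfamily (Tnfrsf1a, Tnfrsf1b, Fas, Tnfrsf10b, Tnfrsf12a and Tnfrsf21) and 4 proteins that pass their signals on to cell death (Ripk1, Ripk3, Mlkl and Casp8). They were chosen by name, as the rows of the deposited count table whose Ensembl identifiers carry these symbols, and make up 10 of the 55414 genes in the table. All 10 were among the 13857 genes with enough reads to be tested, and Tnfrsf10b was so only through the FeSO4 mice.

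The data are bulk RNAseq of livers of female C57Bl/6J mice of 8 to 12 weeks, studied to learn how acute iron overload alters the response to dexamethasone (DEX), a synthetic glucocorticoid that activates the glucocorticoid receptor. The 12 mice formed 4 groups of 3, given first either 300 mg/kg FeSO4 (iron sulfate) or, as its control, 0.9% NaCl, and 6 h later either 10 mg/kg DEX or, as its control, PBS, all by i.p. injection. They are called NaCl/PBS, NaCl/DEX, FeSO4/PBS and FeSO4/DEX, and each liver was taken 2 h after the second injection, 8 h after the first. Reads counted on genes lay between 16335651 and 23827340 per mouse.

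TNF receptor 1, Fas and the TRAIL receptor carry a death domain, a cytoplasmic module that recruits the adaptors TRADD or FADD once ligand is bound. RIPK1 and caspase-8 meet on these adaptors. Active caspase-8 starts apoptosis and cleaves RIPK1 and RIPK3, whereas RIPK3 that escapes this cleavage phosphorylates the pseudokinase MLKL, which then permeabilises the plasma membrane in necroptosis. Tnfrsf21 (DR6) also has a death domain, while Tnfrsf1b (TNF receptor 2) and Tnfrsf12a (Fn14, the receptor of TWEAK) have none and signal through TRAF proteins. In the liver, hepatocytes are known to be sensitive to Fas ligand, and to TNF when survival signals are blocked.

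In mice without DEX, FeSO4 raised 8 of the 10 genes and lowered none (edgeR FDR of 0.05 or less, the threshold for every call below). The background was broad, since 54.5% of all tested genes were called in this comparison, 27.2% higher and 27.3% lower. The 8 genes were Tnfrsf12a, Tnfrsf10b, Tnfrsf1a, Tnfrsf1b, Ripk3, Casp8, Tnfrsf21 and Ripk1, and Fas and Mlkl were not called. Tnfrsf10b had enough reads to be tested only through the FeSO4 mice, where it is high, so its call follows in part from that filter. The median log2 fold change (LFC) of the 10 genes was 0.82, against -0.02 for all tested genes. The same 8 genes had all 3 FeSO4/PBS mice above all 3 NaCl/PBS mice, a separation that 29.0% of tested genes showed. The choice of scaling mattered here, since with library size alone in place of TMM factors the median LFC of all tested genes fell to -0.34, and 5 of the 10 genes were called higher and 1 (Mlkl) lower. In bulk liver, fewer cells of a type and less RNA per cell cannot be told apart.

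**Figure D1:**
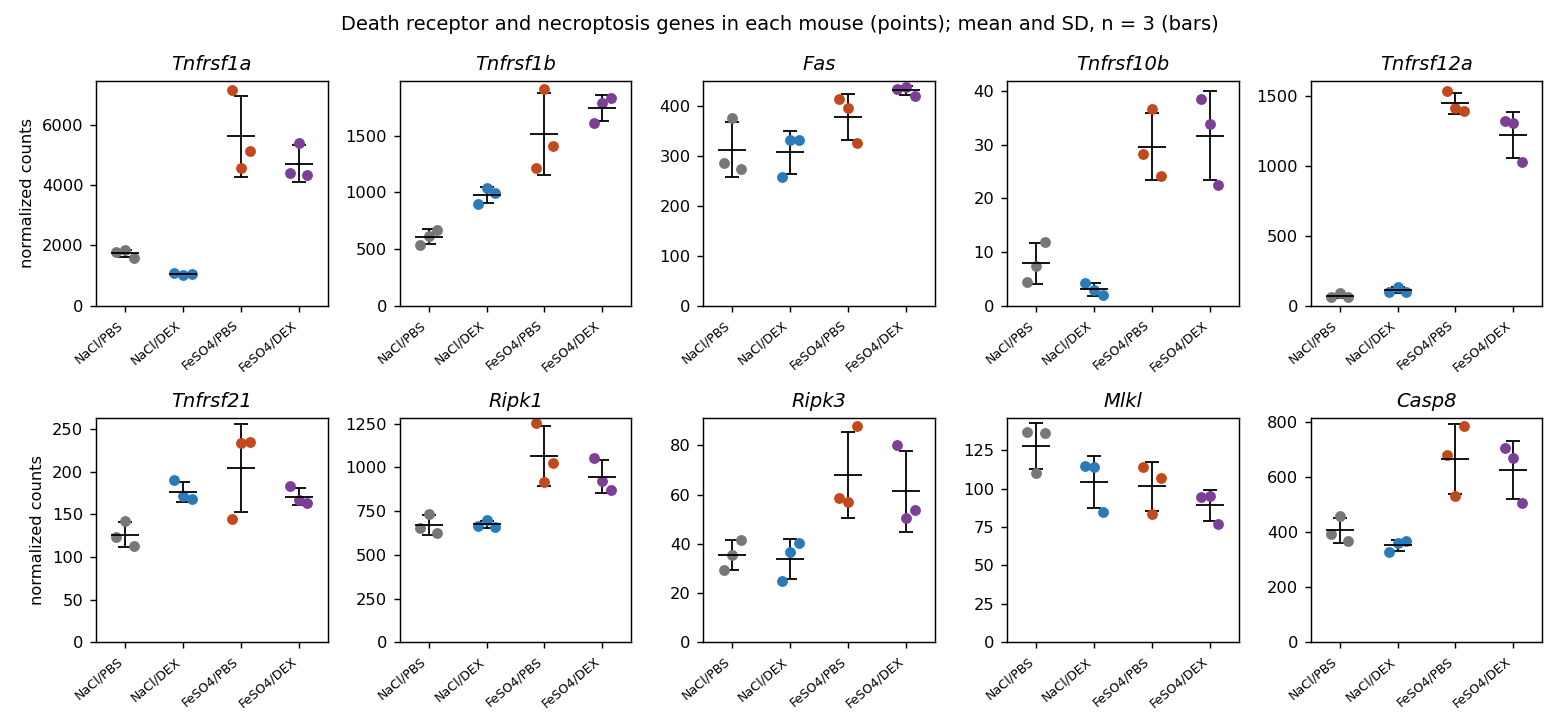
Normalized counts (y axis, linear, from 0) of the 10 genes in the livers of 4 groups (x axis). Each point is 1 mouse, and the bars give the mean and the SD of 3 mice; for 8 genes, all but Fas and Mlkl, the 3 FeSO4/PBS mice lie above the 3 NaCl/PBS mice.

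The receptors are taken first. Tnfrsf1a, TNF receptor 1, lies on chr6:125325566-125339632 (GRCm39, plus strand, 10 exons in the canonical transcript) and was the most abundant of the 10 genes per kilobase of exon in every group. Tnfrsf1b, TNF receptor 2, lies on chr4:144938938-144973477 (minus strand, 10 exons). Both rose after FeSO4 and moved in opposite directions after DEX, as given below, so the 250 bases before the start of their canonical transcripts are shown, 5′ to 3′, read from the GRCm39 genome. Capitals mark the letters TTCNNNGAA, the palindrome bound by STAT factors.
Tnfrsf1a, chr6:125326423-125326672, plus strand: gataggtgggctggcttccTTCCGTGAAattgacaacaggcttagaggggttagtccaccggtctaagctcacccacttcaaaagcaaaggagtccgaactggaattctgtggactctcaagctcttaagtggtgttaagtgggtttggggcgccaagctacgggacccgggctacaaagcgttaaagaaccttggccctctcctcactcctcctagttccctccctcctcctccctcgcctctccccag
Tnfrsf1b, chr4:144973441-144973690, minus strand: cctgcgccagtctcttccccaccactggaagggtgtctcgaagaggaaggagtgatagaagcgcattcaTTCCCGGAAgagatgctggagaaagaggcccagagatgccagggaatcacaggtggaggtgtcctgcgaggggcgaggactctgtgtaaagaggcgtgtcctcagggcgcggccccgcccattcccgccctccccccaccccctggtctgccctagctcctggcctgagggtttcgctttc
The match begins 231 bases before the start in Tnfrsf1a and 181 bases before it in Tnfrsf1b. Fas also held one, TTCTGGGAA, 93 bases before its start, and an AP-1 match, TGAGTCA, 211 bases before it. Thus 3 of the 10 genes held TTCNNNGAA in windows of 300 bases (250 before to 50 after the start), against 8.81% of 21770 protein-coding promoters. TGANTCA was in 1 of the 10 windows and in 7.14% of all promoters. The palindromic glucocorticoid response element was in none of the 10 windows and in 0.381% of all promoters, and the NF-kB motif and the p53 half-site, in 8.97% and 7.89% of all promoters, were in none of the 10 either. Both strands were searched, and a match is only a run of letters, with no binding measured here.

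Tnfrsf1a had 1769, 1833 and 1585 normalized counts in NaCl/PBS mice and 7144, 4574 and 5124 in FeSO4/PBS mice. The 2 groups were far apart, and FeSO4/PBS mouse 1 stood above the other 2. The LFC was 1.70 ± 0.16 (SE, 3 mice against 3, edgeR FDR = 1.05e-06), a 3.25-fold rise. DEX acted in the other direction in NaCl mice. With DEX the NaCl mice had 1098, 1032 and 1035 normalized counts, so that each lay below the lowest NaCl/PBS mouse, and the LFC was -0.71 ± 0.15 (edgeR FDR = 0.00636). In FeSO4 mice the values with DEX were 4391, 5409 and 4322, which overlapped those with PBS (LFC -0.25 ± 0.15, edgeR FDR = 0.796).

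Tnfrsf1b had 539, 617 and 668 normalized counts in NaCl/PBS mice and 1215, 1914 and 1409 in FeSO4/PBS mice. All FeSO4/PBS mice were higher, with an LFC of 1.32 ± 0.15 (edgeR FDR = 7.99e-06), a 2.49-fold rise. After DEX in NaCl mice the values were 895, 1037 and 995. Here DEX raised the gene (LFC 0.68 ± 0.15, edgeR FDR = 0.00767), and no NaCl/DEX mouse overlapped the NaCl/PBS mice. The FeSO4/DEX mice had 1612, 1790 and 1830 normalized counts, within the range of the FeSO4/PBS mice (LFC 0.21 ± 0.15, edgeR FDR = 0.823). The 2 TNF receptors were thus both higher after FeSO4, and after DEX alone TNF receptor 1 was lower and TNF receptor 2 higher. On the scale of counts per kilobase of exon, the NaCl/PBS mean was 549 for Tnfrsf1a and 123 for Tnfrsf1b, and in NaCl/DEX mice it was 335 and 197.

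Fas, the receptor of Fas ligand (chr19:34268001-34305173, plus strand, 9 exons), had 286, 375 and 274 normalized counts in NaCl/PBS mice and 412, 395 and 325 in FeSO4/PBS mice. NaCl/PBS mouse 2 lay inside the FeSO4/PBS range, and the difference was not called (LFC 0.28, 95% interval -0.04 to 0.60, edgeR FDR = 0.126). Without that mouse it was called, with an LFC of 0.44 (edgeR FDR = 0.030), and with library size alone the LFC was -0.041. The NaCl/DEX mice had 258, 332 and 331 normalized counts and the FeSO4/DEX mice 434, 438 and 420. The 3 FeSO4/DEX mice were close to each other and above all other mice, and against NaCl/DEX Fas was called higher (LFC 0.49 ± 0.15, edgeR FDR = 0.0169). That call was lost without FeSO4/DEX mouse 2 (LFC 0.44, edgeR FDR = 0.0637) or NaCl/DEX mouse 1 (LFC 0.37, edgeR FDR = 0.0826) and with library size alone (LFC 0.29, edgeR FDR = 0.123). Against FeSO4/PBS the LFC of Fas was 0.19 (edgeR FDR = 0.832).

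Tnfrsf10b, the only mouse TRAIL receptor with a death domain (chr14:70004916-70021860, plus strand, 8 exons), was the rarest of the 10 genes. Its reads numbered 6, 8 and 14 in NaCl/PBS mice and 28, 36 and 19 in FeSO4/PBS mice. Each FeSO4/PBS mouse lay above each NaCl/PBS mouse, and after scaling the means were 7.88 ± 3.78 and 29.7 ± 6.33 normalized counts (SD, n = 3). The LFC was 1.92 ± 0.42 (edgeR FDR = 0.00148). With DEX, 4, 3 and 2 reads were left in the NaCl mice, against 40, 25 and 19 in the FeSO4 mice. The fall after DEX in NaCl mice missed the threshold (LFC -1.33 ± 0.55, edgeR FDR = 0.133), although the groups did not overlap. FeSO4/DEX against NaCl/DEX gave an LFC of 3.35 ± 0.49 (edgeR FDR = 0.000101), or 10.2-fold, with a 95% interval of 4.89 to 21.1. This fold rests on 9 reads in the 3 NaCl/DEX mice together. Because the gene was tested only through the FeSO4 mice, where it is high, both FeSO4 calls follow in part from the filter and give no support of their own.

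Tnfrsf12a encodes Fn14, a small receptor of TWEAK that is known to be induced in injured and regenerating liver. It lies on chr17:23894416-23896468 (minus strand, 4 exons) and showed the largest FeSO4 response of the 10 genes, so the 250 bases before its start are shown for comparison with those above. They hold none of the 5 motifs.
Tnfrsf12a, chr17:23896464-23896713, minus strand: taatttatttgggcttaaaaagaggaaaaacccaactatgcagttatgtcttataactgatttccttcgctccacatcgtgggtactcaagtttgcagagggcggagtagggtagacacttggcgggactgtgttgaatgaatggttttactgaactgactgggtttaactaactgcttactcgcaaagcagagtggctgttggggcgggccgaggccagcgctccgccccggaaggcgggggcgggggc
Tnfrsf12a had 58.3, 87.0 and 58.4 normalized counts in NaCl/PBS mice and 1534, 1418 and 1393 in FeSO4/PBS mice. The FeSO4/PBS mice lay close together, far above the NaCl/PBS mice, and the LFC was 4.42 ± 0.18 (edgeR FDR = 3.34e-09), a 21.5-fold rise. With any 1 of the 12 mice left out, the LFC stayed between 4.32 and 4.63. After DEX the NaCl mice had 97.7, 135 and 101 normalized counts, all above the NaCl/PBS mice, and this small rise was called too (LFC 0.72 ± 0.18, edgeR FDR = 0.0178). It was lost without NaCl/DEX mouse 2 (LFC 0.56, edgeR FDR = 0.0933), NaCl/PBS mouse 1 (LFC 0.63, edgeR FDR = 0.0875) or NaCl/PBS mouse 3 (LFC 0.63, edgeR FDR = 0.0826), and with library size alone (LFC 0.57, edgeR FDR = 0.0513). The FeSO4/DEX mice had 1321, 1309 and 1030 normalized counts, each below the lowest FeSO4/PBS mouse (a separation that 4.85% of tested genes showed in this direction), and that difference was not called (LFC -0.25 ± 0.15, edgeR FDR = 0.799).

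All 1965 exon bases of Tnfrsf12a are also covered by exons of Hcfc1r1 on the opposite strand in GENCODE vM39. The library kit marks strand, and which strand setting was used for counting is not given in the sources used here, so the reads of the 2 genes cannot be told apart from the table alone. Hcfc1r1 had 483, 499 and 460 normalized counts in NaCl/PBS mice and an LFC of 0.16 ± 0.14 after FeSO4 (edgeR FDR = 0.354). Its level in NaCl/PBS mice was above that of Tnfrsf12a, and it was not called where Tnfrsf12a rose 21.5-fold. In the comparison of FeSO4/DEX with NaCl/DEX mice it was called, with an LFC of 0.53 (edgeR FDR = 0.00916) beside 3.45 for Tnfrsf12a. Of the other members, Mlkl shares 11.6% of its exon bases with the antisense gene Gm63800, Ripk1 4.65% with the pseudogene Gm17084 on its own strand and 2.19% with the antisense Serpinb6a, Tnfrsf1b 3.72% with the antisense Gm68886 and Tnfrsf1a 0.603% with the antisense Plekhg6, so that part of their reads is uncertain.

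Tnfrsf21, or DR6 (chr17:43327349-43400081, plus strand, 6 exons), had 124, 142 and 113 normalized counts in NaCl/PBS mice and 145, 234 and 235 in FeSO4/PBS mice. FeSO4/PBS mouse 1 lay just above the highest NaCl/PBS mouse while the other 2 were far above, and the gene was called (LFC 0.70 ± 0.18, edgeR FDR = 0.0052). With library size alone the call was lost (LFC 0.38, edgeR FDR = 0.104). The NaCl/DEX mice had 190, 171 and 168 normalized counts and the FeSO4/DEX mice 183, 167 and 163. These 2 groups overlapped, with an LFC of -0.04 (95% interval -0.43 to 0.35, edgeR FDR = 0.870), so that an FeSO4 effect was called for Tnfrsf21 in PBS mice and not in DEX mice. DEX in NaCl mice gave an LFC of 0.48 with no overlap between the groups, short of the threshold (edgeR FDR = 0.0997), which it passed without FeSO4/PBS mouse 1 (LFC 0.50, edgeR FDR = 0.0186) and in a fit of the NaCl libraries alone (LFC 0.50, edgeR FDR = 0.0297).

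Among the kinases, Ripk1 is the scaffold and kinase shared by the survival and death complexes (chr13:34186141-34221130, plus strand, 11 exons). It had 654, 733 and 623 normalized counts in NaCl/PBS mice and 1252, 918 and 1023 in FeSO4/PBS mice. All FeSO4/PBS mice were higher (LFC 0.67 ± 0.12, edgeR FDR = 0.000483). The NaCl/DEX mice, with 668, 699 and 660, overlapped the NaCl/PBS mice, and the FeSO4/DEX mice, with 1051, 922 and 868, overlapped the FeSO4/PBS mice. FeSO4/DEX against NaCl/DEX gave an LFC of 0.49 ± 0.13 for Ripk1 (edgeR FDR = 0.00615), a call that was lost with library size alone (LFC 0.29, edgeR FDR = 0.0762).

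Ripk3, the kinase that phosphorylates MLKL (chr14:56022452-56026324, minus strand, 10 exons), was low in every group. It had 29.5, 35.5 and 41.5 normalized counts in NaCl/PBS mice and 58.5, 57.0 and 88.0 in FeSO4/PBS mice. The groups did not overlap, and the LFC was 0.93 ± 0.28 (edgeR FDR = 0.0133). The call rested on few mice and few reads, since it was lost without FeSO4/PBS mouse 3 (LFC 0.71, edgeR FDR = 0.0685) or NaCl/PBS mouse 1 (LFC 0.81, edgeR FDR = 0.0585) and with library size alone (LFC 0.61, edgeR FDR = 0.0928). The DEX groups had 24.7, 36.7 and 40.3 normalized counts after NaCl and 80.2, 50.3 and 53.5 after FeSO4. Here too each FeSO4 mouse was above each NaCl mouse (LFC 0.86 ± 0.29, edgeR FDR = 0.0278), with the call lost without FeSO4/DEX mouse 1 (LFC 0.61, edgeR FDR = 0.144), NaCl/DEX mouse 1 (LFC 0.68, edgeR FDR = 0.110) or NaCl/DEX mouse 2 (LFC 0.92, edgeR FDR = 0.0535) and with library size alone (LFC 0.67, edgeR FDR = 0.0881).

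Mlkl, the executioner of necroptosis (chr8:112036296-112065168, minus strand, 11 exons), was called in no comparison. It had 137, 110 and 136 normalized counts in NaCl/PBS mice, 115, 114 and 84.6 in NaCl/DEX mice, 114, 83.4 and 107 in FeSO4/PBS mice and 94.7, 95.2 and 77.3 in FeSO4/DEX mice. The means were highest in NaCl/PBS mice and lowest in FeSO4/DEX mice, with overlap between neighbouring groups. FeSO4/PBS against NaCl/PBS gave an LFC of -0.33 (95% interval -0.74 to 0.07, edgeR FDR = 0.152), an interval whose upper end lies below the LFCs of Ripk1, Casp8 and Ripk3. With library size alone Mlkl was called lower (LFC -0.66, edgeR FDR = 0.0106).

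Casp8, caspase-8 (chr1:58834375-58886665, plus strand, 9 exons), had 393, 458 and 368 normalized counts in NaCl/PBS mice and 678, 531 and 784 in FeSO4/PBS mice. The groups were apart, with an LFC of 0.71 ± 0.16 (edgeR FDR = 0.0017), which became 0.39 with library size alone (edgeR FDR = 0.0536). In DEX mice the counts were 329, 359 and 367 after NaCl and 704, 667 and 504 after FeSO4. Again every FeSO4 mouse lay above every NaCl mouse (LFC 0.83 ± 0.16, edgeR FDR = 0.00081). DEX gave an LFC of -0.21 in NaCl mice (edgeR FDR = 0.443), where the groups did not overlap, and of -0.09 in FeSO4 mice, where they did (edgeR FDR = 0.941).

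**Figure D2:**
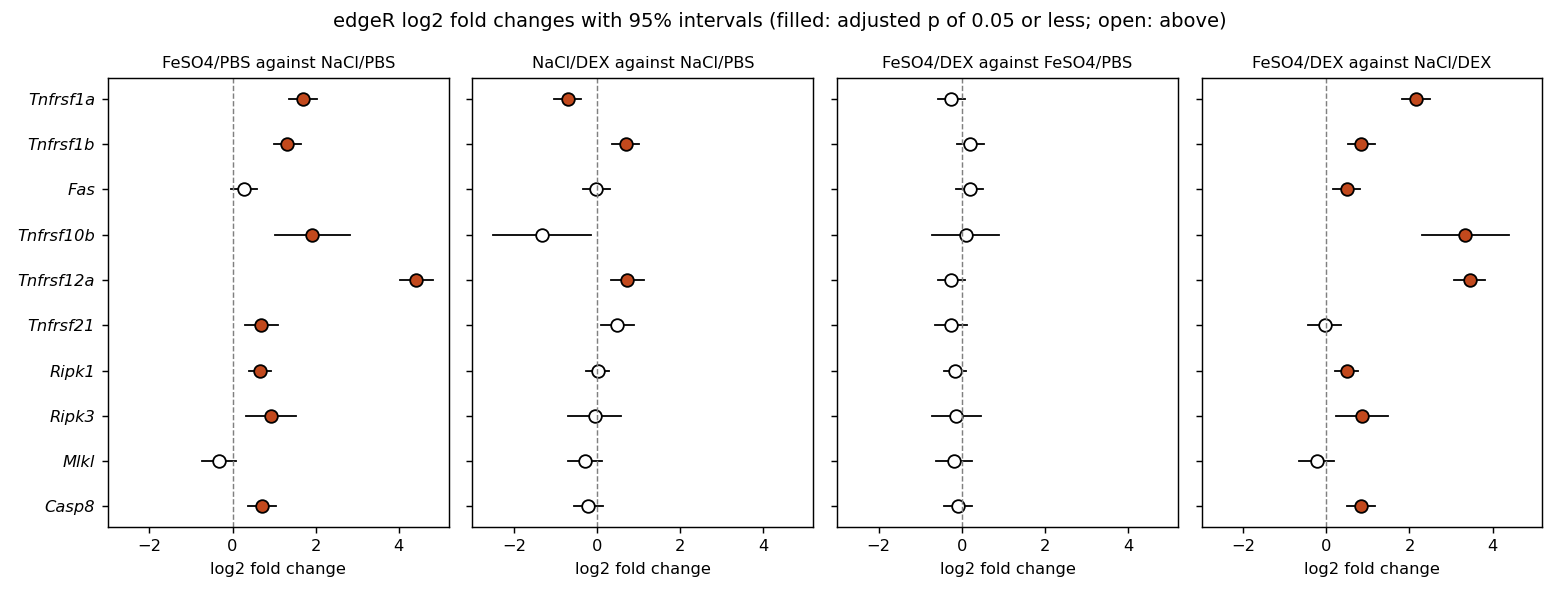
Log2 fold changes of the 10 genes (x axis) with 95% intervals (lines) in 4 comparisons (panels), filled where the edgeR FDR was 0.05 or less. FeSO4 against NaCl has 8 filled points in PBS mice and 8 in DEX mice, DEX has 3 in NaCl mice and none in FeSO4 mice.

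The FeSO4 effect was measured a second time in mice that all received DEX, the FeSO4/DEX and NaCl/DEX mice. Their means take no part in the first comparison. Both comparisons came from 1 fit of all 12 libraries, however, and share its filter, scaling and estimates of spread. Between FeSO4/DEX and NaCl/DEX mice 43.3% of tested genes were called, 22.4% higher and 20.9% lower. Of the 10 genes, 8 were higher and none lower, with a median LFC of 0.83. With library size alone 5 were called. The 8 genes included Fas in place of Tnfrsf21, and the other 7 were called in both. Among those 7 is Tnfrsf10b, which was tested only through the FeSO4 mice. Tnfrsf12a had an LFC of 3.45 ± 0.17 (edgeR FDR = 1.77e-08), Tnfrsf1a of 2.16 ± 0.16 (edgeR FDR = 2.55e-07) and Tnfrsf1b of 0.84 ± 0.15 (edgeR FDR = 0.00049). All 8 also had no overlap between FeSO4/DEX and NaCl/DEX mice, as 28.8% of tested genes did in this direction. For Mlkl the LFC was -0.23 (95% interval -0.65 to 0.19).

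DEX in NaCl mice called 13.7% of tested genes, 6.5% higher and 7.15% lower. Of the 10 genes, Tnfrsf1b and Tnfrsf12a were higher and Tnfrsf1a lower, and the median LFC was -0.04, against -0.02 for all tested genes. With library size alone 1 gene was called higher and 1 lower. The NaCl/DEX mice lay wholly above the NaCl/PBS mice for 3 genes (Tnfrsf1b, Tnfrsf12a and Tnfrsf21) and wholly below for 3 (Tnfrsf1a, Tnfrsf10b and Casp8), as 17.6% and 20.3% of tested genes did. NaCl/DEX and FeSO4/PBS mice are both compared with the same NaCl/PBS mice, so the 2 sets of LFCs are not independent. Side by side, Tnfrsf1a had an LFC of 1.70 after FeSO4 and -0.71 after DEX, Tnfrsf10b 1.92 and -1.33, Tnfrsf1b 1.32 and 0.68, and Tnfrsf12a 4.42 and 0.72. For Tnfrsf10b the fall after DEX was not called (edgeR FDR = 0.133), and the gene was tested only through the FeSO4 mice, where it is high.

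DEX in FeSO4 mice called none of the 10 genes by edgeR, with 0 at an unadjusted p under 0.05 and 0 by DESeq2. The background was 0% of tested genes by edgeR, with 900 genes at an unadjusted p under 0.05 10 called by DESeq2 and 170 called by edgeR without the low-count filter. The LFCs of the 10 genes lay between -0.25 and 0.21, and the lowest edgeR FDR was 0.796. Whether the DEX response differed between NaCl and FeSO4 mice was tested as an interaction, in which 6.18% of tested genes were called, 2.99% higher and 3.2% lower. Of the 10 genes, Tnfrsf12a passed, with DEX LFCs of 0.72 (NaCl mice) and -0.25 (FeSO4 mice) and a difference of -0.97 ± 0.24 (edgeR FDR = 0.0273). That call was lost with library size alone (edgeR FDR = 0.0545) and without FeSO4/DEX mouse 3, NaCl/DEX mouse 2, NaCl/PBS mouse 1 or NaCl/PBS mouse 3 (edgeR FDR of 0.0598, 0.0825, 0.0851 and 0.0828). For Tnfrsf21 (-0.74, edgeR FDR = 0.113), Tnfrsf1b (-0.48, edgeR FDR = 0.22), Tnfrsf1a (0.46, edgeR FDR = 0.245) and Tnfrsf10b (1.43, edgeR FDR = 0.245) the difference was not called, although without FeSO4/PBS mouse 1 it was for Tnfrsf21 (-0.98, edgeR FDR = 0.00845), Tnfrsf1a (0.63, edgeR FDR = 0.0307) and Tnfrsf1b (-0.66, edgeR FDR = 0.0439). FeSO4/PBS mouse 1 had the highest Tnfrsf1a, Tnfrsf12a and Ripk1 and the lowest Tnfrsf1b and Tnfrsf21 of its group.

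When a call also had to have an LFC beyond 1 in size, 4 of the 10 genes were called after FeSO4 in PBS mice (27.2% of tested genes), 0 after DEX in NaCl mice (6.38%), 0 after DEX in FeSO4 mice (0%), 3 after FeSO4 in DEX mice (20.5%) and 0 in the interaction (4.14%). Tnfrsf10b, which was tested only through the FeSO4 mice, is among both the 4 and the 3, so these counts follow in part from the filter.

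Levels can be set roughly beside each other once divided by exon length, here the union of all annotated exons of a gene. The length of the transcripts present was not measured, and the order depends on this divisor. In NaCl/PBS mice the order of mean normalized counts per kilobase was Tnfrsf1a (549), Fas (134), Casp8 (132), Tnfrsf1b (123), Ripk1 (60.9), Tnfrsf12a (34.5), Tnfrsf21 (28.7), Mlkl (22.1), Ripk3 (14.0) and Tnfrsf10b (1.38). The neighbours Fas, Casp8 and Tnfrsf1b overlapped between mice, as did Tnfrsf12a and Tnfrsf21, whereas Tnfrsf1a lay apart above them and Tnfrsf10b apart below. In FeSO4/PBS mice Tnfrsf12a moved from place 6 to place 2, with 737 normalized counts per kilobase, behind Tnfrsf1a with 1783. Tnfrsf1b followed with 306 and Casp8 with 216, and their ranges overlapped. Ripk3, with 26.8, had passed Mlkl, with 17.5, and the 2 ranges, 22.5 to 34.8 and 14.4 to 19.7, did not overlap. In NaCl/PBS mice Mlkl had been the higher one, at 19.1 to 23.6 against 11.7 to 16.4. This change of places holds only on the scale per kilobase. Before the division Mlkl had the higher mean in FeSO4/PBS mice too, with 101.5 normalized counts against 67.8 for Ripk3.

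**Figure D3:**
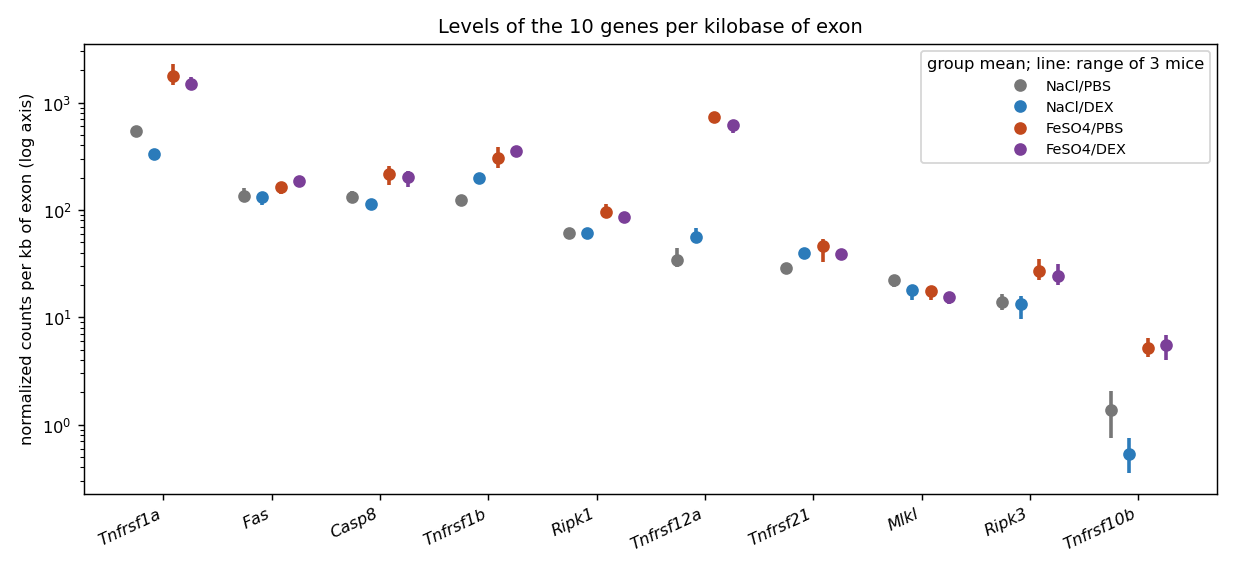
Normalized counts per kilobase of exon (y axis, log scale) of the 10 genes (x axis, ordered by NaCl/PBS mean). Points are group means and lines the range of 3 mice. Tnfrsf12a rises from 34.5 to 737, and on this scale Ripk3 changes places with Mlkl after FeSO4.

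The genes also differed in shape across the 12 mice, measured as the root mean square difference of log2 normalized counts centred on the NaCl/PBS mean. Among the 10 genes, Casp8 and Ripk1 were the most alike (0.18), followed by Fas and Ripk1 (0.24) and Casp8 and Ripk3 (0.27). Mlkl and Tnfrsf12a were the least alike (3.39). Among 12758 other tested genes, the most like Ripk1 were Rrp7a (0.067) and Nub1 (0.075), the most like Casp8 were Zc3h7a (0.14) and Ptpn12 (0.14), and the most like Fas were Txndc12 (0.12) and Ctsz (0.12). Tnfrsf12a was closest to H3f3b (0.24) and Dbn1 (0.42). Tnfrsf1a was closest to Ap5s1 (0.17) and Il17ra (0.19), the receptor of IL-17, and Tnfrsf1b to Hs6st1 (0.15) and Sik3 (0.16). Tnfrsf10b was closest to Selp (0.32) and Slc13a5 (0.43), Tnfrsf21 to Acot12 (0.13) and Tmf1 (0.13), Ripk3 to Pard3b (0.18) and Slc25a36 (0.21), and Mlkl to Nelfb (0.12) and Ccdc125 (0.13). All of these values share the same 12 libraries and are descriptions.

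The proteins around the 10 genes were followed with 6 lists by role, 101 genes in all, of which 89 were tested. After FeSO4, 26 were higher and 26 lower, with a median LFC of 0.02, so that the lists together lay near the background of 27.2% and 27.3%. After DEX in NaCl mice 4 were higher (Map3k5, Nfkbia, Ticam1 and Peli1) and 13 lower, against a background of 6.5% and 7.15% of all tested genes. In FeSO4 mice DEX called none of the 89 by edgeR or DESeq2.

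The ligands were sparse. Tnf had 5, 24 and 9 reads in NaCl/PBS mice, 0, 0 and 1 in NaCl/DEX mice, 4, 1 and 1 in FeSO4/PBS mice and 4, 3 and 0 in FeSO4/DEX mice, and Fasl had between 1 and 11 reads in all mice, so neither was tested. Tnfsf10, which encodes TRAIL, the ligand of Tnfrsf10b, had 288, 253 and 213 normalized counts in NaCl/PBS mice, 71.9, 57.4 and 46.3 in NaCl/DEX mice and 18.1, 16.3 and 8.93 in FeSO4/PBS mice. It fell after both, by 4.08 ± 0.28 on the log2 scale after FeSO4 (edgeR FDR = 8.02e-08) and by 2.10 ± 0.23 after DEX (edgeR FDR = 4.26e-05), while its receptor rose after FeSO4. Tnfsf12, which encodes TWEAK, the ligand of Tnfrsf12a, had 121, 128 and 148 normalized counts in NaCl/PBS mice and 132, 101 and 117 in FeSO4/PBS mice, which overlap (LFC -0.18, 95% interval -0.55 to 0.19, edgeR FDR = 0.396), though with library size alone it was called lower (LFC -0.50, edgeR FDR = 0.0243). Of the 4 ligands tested, Tnfsf14 was called higher, Tnfsf10 and Ltb lower and Tnfsf12 neither. Tnfsf14 had enough reads to be tested only through the FeSO4 mice and Ltb only through the NaCl/PBS mice, so their calls follow in part from that filter.

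Of 13 other TNF receptor family members tested, 2 were higher after FeSO4 (Tnfrsf23 and Tnfrsf4) and 4 lower (Tnfrsf14, Cd40, Tnfrsf11a and Tnfrsf19). Tnfrsf23, a decoy receptor of TRAIL, had 16.5, 13.1 and 12.7 normalized counts in NaCl/PBS mice and 317, 95.6 and 66.3 in FeSO4/PBS mice (LFC 3.49 ± 0.53, edgeR FDR = 8.72e-05), with FeSO4/PBS mouse 1 well above the other 2. Without that mouse its LFC was 2.51, and it was still called. Tnfrsf4 reached the test only through the FeSO4 mice, and Cd40 mainly through the NaCl/PBS mice. Tnfrsf14, a receptor of LIGHT, fell by 2.61 on the log2 scale (edgeR FDR = 6.36e-05). Tnfrsf19 fell by 0.61 (edgeR FDR = 0.0201), a call lost without FeSO4/PBS mouse 1 (edgeR FDR = 0.0635), NaCl/PBS mouse 1 (0.0569) or NaCl/PBS mouse 2 (0.0614) and with no filter on low counts (0.0561).

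Of 11 adaptors, 3 were higher after FeSO4 (Map3k5, Traf6 and Ripk2) and 5 lower (Fadd, Traf5, Traf1, Tradd and Traf3). Traf1 had enough reads to be tested only through the NaCl/PBS mice, where it is high, so its call follows in part from that filter. Fadd, which joins death domains to caspase-8, had 185, 197 and 206 normalized counts in NaCl/PBS mice and 74.6, 45.8 and 63.8 in FeSO4/PBS mice (LFC -1.67 ± 0.20, edgeR FDR = 1.09e-05). Tradd, the adaptor of TNF receptor 1, went from 160, 155 and 173 to 74.6, 63.1 and 95.7 (LFC -1.07 ± 0.22, edgeR FDR = 0.00106). In FeSO4/DEX against NaCl/DEX mice Fadd was again lower (LFC -1.36 ± 0.20, edgeR FDR = 0.000103), whereas the groups overlapped for Tradd, which was not called (LFC -0.47 ± 0.22, edgeR FDR = 0.1). Map3k5 (ASK1) rose by an LFC of 1.25 (edgeR FDR = 0.000425) and Traf6 by 1.21 (edgeR FDR = 4.39e-06), and Traf2 had an LFC of -0.41 that was not called (edgeR FDR = 0.194) except with library size alone (LFC -0.74, edgeR FDR = 0.0212) or without FeSO4/PBS mouse 1 (LFC -0.84, edgeR FDR = 0.00486).

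The checkpoint and ubiquitin regulators, which decide whether RIPK1 signals survival or death, had 13 of 26 genes higher and 5 lower (Ikbke, Xiap, Cflar, Cyld and Ikbkb) after FeSO4, with a median LFC of 0.38. Tnip2, Mapkapk2 and Tnfaip3 (A20), which restrain TNF signalling, RIPK1 or NF-kB, were among the higher ones. Mapkapk2 went from 1131, 1002 and 1000 normalized counts to 4577, 5336 and 4686 (LFC 2.22 ± 0.14, edgeR FDR = 5.9e-08), Tnip2 rose by an LFC of 2.27 ± 0.21 (edgeR FDR = 1.19e-06), and Tnfaip3 by 1.51 ± 0.36 (edgeR FDR = 0.00283). Without NaCl/PBS mouse 2 the LFC of Tnfaip3 was 2.23, and it was still called. Cflar (cFLIP), the partner that limits caspase-8, went from 2097, 2030 and 2009 normalized counts to 1008, 1162 and 1118 (LFC -0.90 ± 0.10, edgeR FDR = 4.67e-06). Casp8 and its inhibitor therefore moved in opposite directions. Xiap fell by 1.05 (edgeR FDR = 2.65e-06), Ikbke by 1.43 (edgeR FDR = 8.7e-06) and Cyld by 0.57 (edgeR FDR = 0.00682). Birc2 and Birc3, which encode the cIAP ubiquitin ligases of RIPK1, were not called (LFC 0.30 and 0.06, edgeR FDR = 0.103 and 0.789), and with library size alone their LFCs were -0.022 and -0.26.

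Downstream, 2 of 16 caspases and pore formers were higher after FeSO4 (Apaf1 and Diablo) and 5 lower, among them Casp9, Casp2 and Casp6, and with library size alone 1 was higher and 10 lower. Casp9, the caspase activated on the apoptosome, went from 411, 404 and 477 normalized counts to 92.7, 168 and 190 (LFC -1.53 ± 0.21, edgeR FDR = 3.49e-05). Casp2 fell by 0.65 (edgeR FDR = 0.0252), without a call when FeSO4/PBS mouse 2 (0.108), NaCl/PBS mouse 2 (0.0623) or NaCl/PBS mouse 3 (0.0981) was left out. Apaf1, the scaffold of the apoptosome, rose by an LFC of 1.28 (edgeR FDR = 7.93e-05) and Diablo by 0.78 (edgeR FDR = 0.005, and 0.0672 with library size alone). Bid, which caspase-8 cleaves to reach mitochondria, was not called after FeSO4 (LFC -0.20, edgeR FDR = 0.300, and -0.52, edgeR FDR = 0.0198, with library size alone) and fell by 1.04 ± 0.16 after DEX in NaCl mice (edgeR FDR = 0.000626), from 247, 257 and 259 normalized counts to 107, 132 and 131. Gsdmd, the pore former of pyroptosis, lay near the threshold (LFC -0.37, edgeR FDR = 0.0578), which it passed with library size alone (0.00145), without the low-count filter (0.0468), with a minimum of 10 counts per library (0.0457), with a replicate block (0.0454) or without FeSO4/PBS mouse 1 (0.00137).

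Of 19 partners of RIPK3 and MLKL, 5 were higher after FeSO4 (Ticam1, Chmp4b, Hsp90aa1, Pgam5 and Chmp2a) and 5 lower (Zbp1, Tlr4, Tlr3, Parp1 and Flot1), and with library size alone 3 and 8. Ticam1 (TRIF) and Zbp1, which can both engage RIPK3, moved apart. Ticam1 went from 299, 269 and 199 normalized counts to 699, 782 and 761 (LFC 1.55 ± 0.14, edgeR FDR = 1.3e-06) and Zbp1 from 319, 417 and 283 to 125, 164 and 131 (LFC -1.28 ± 0.18, edgeR FDR = 4.49e-05). Chmp4b, an ESCRT-III subunit of the kind that repairs membranes damaged by MLKL, rose by an LFC of 1.22 (edgeR FDR = 1.28e-06), and Tlr3 fell by 1.00 (edgeR FDR = 0.000572). After DEX in NaCl mice Ticam1 rose by an LFC of 0.90 (edgeR FDR = 0.000758) and Tlr3 fell by 1.20 (edgeR FDR = 0.000751). Zbp1 fell by 0.71 (edgeR FDR = 0.0141), with the call lost without NaCl/DEX mouse 1 (0.062), NaCl/DEX mouse 3 (0.070) or NaCl/PBS mouse 2 (0.0805).

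Several of the smaller calls among the listed genes rested on single mice or on 1 setting. After FeSO4, Cd40 was not called without FeSO4/PBS mouse 1 or 3 or NaCl/PBS mouse 2 (edgeR FDR up to 0.144), Tnfrsf11a without FeSO4/PBS mouse 2 or 3 or NaCl/PBS mouse 2 (up to 0.064), and Ripk2 without FeSO4/PBS mouse 2 or NaCl/PBS mouse 1 or 3 (up to 0.139). Traf3 was not called without FeSO4/PBS mouse 2 or 3 or NaCl/PBS mouse 1 or 2 (up to 0.117), and Ikbkb without FeSO4/PBS mouse 1 or 3 or NaCl/PBS mouse 1 or 3 (up to 0.192). For Casp6 the call was lost without FeSO4/PBS mouse 1 or NaCl/PBS mouse 1 or 3 (up to 0.081), for Flot1 without FeSO4/PBS mouse 2 or NaCl/PBS mouse 1 or 2 (up to 0.134), for Chmp2a without FeSO4/PBS mouse 1 or NaCl/PBS mouse 3 (up to 0.0704) and for Pgam5 without FeSO4/PBS mouse 1 (0.064). Ltb lost its call without any 1 of 6 mice, namely FeSO4/PBS mouse 2 or 3, NaCl/PBS mouse 1 or 3, FeSO4/DEX mouse 3 or NaCl/DEX mouse 1 (edgeR FDR up to 0.13). Leaving out 1 mouse also moved the LFC of Cd40 from -1.99 to -2.58 (without FeSO4/PBS mouse 2) or -1.35 (without NaCl/PBS mouse 2), and that of Tnfrsf11a from -1.36 to -2.07 (without FeSO4/PBS mouse 1). With library size alone the calls of Ripk2 (edgeR FDR 0.285), Pgam5 (0.231) and Chmp2a (0.842) were lost, and without the low-count filter those of Ltb (0.121), Traf1 (0.0749), Traf3 (0.139), Ikbkb (0.0694) and Flot1 (0.0868). In a fit of the compared libraries alone Traf3 (0.065), Ikbkb (0.0894), Flot1 (0.0697) and Chmp2a (0.0596) were not called. The rise of Peli1 after DEX was lost without any 1 of the 6 NaCl mice (edgeR FDR up to 0.171).

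**Figure D4:**
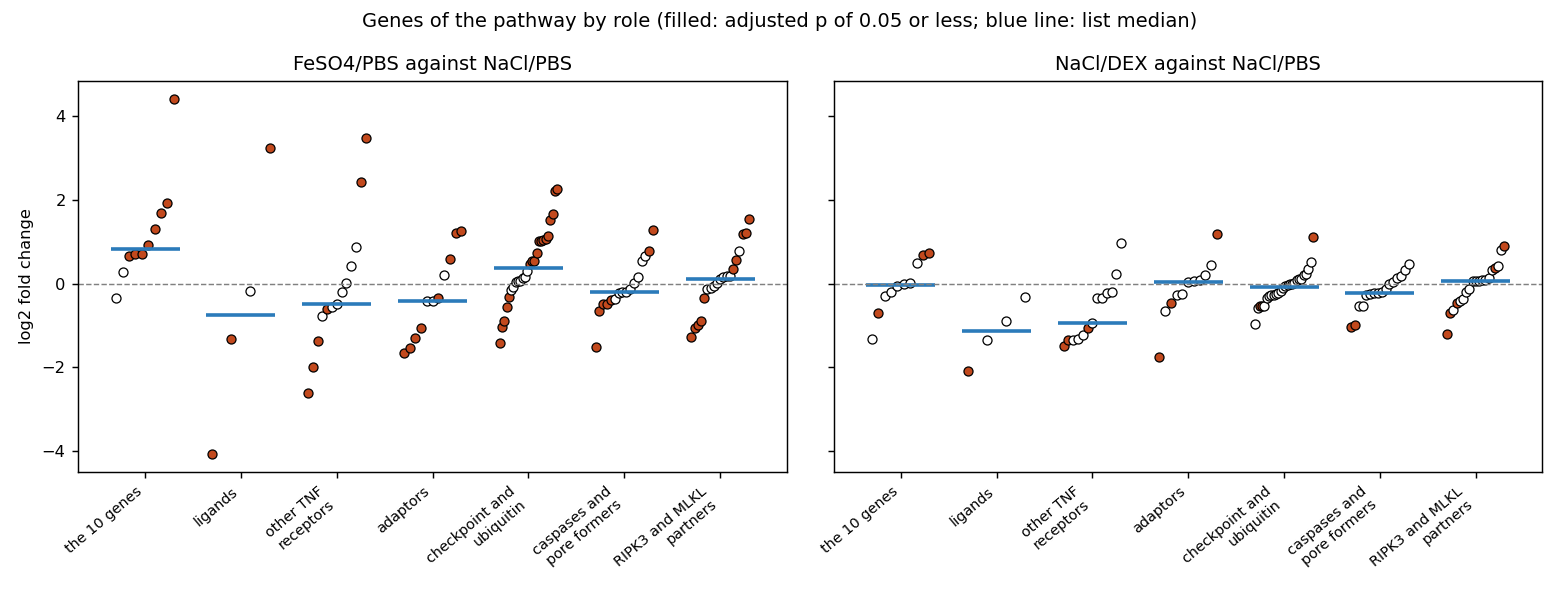
LFCs (y axis) of the 10 genes and of 6 lists of pathway genes (x axis) after FeSO4 (left) and after DEX in NaCl mice (right). Each point is 1 tested gene, filled where the edgeR FDR was 0.05 or less, and the blue line is the list's median; the 10 genes have a median of 0.82 after FeSO4, against 0.02 for the 89 listed genes together.

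Markers of liver cell types were read in the same libraries. All 10 hepatocyte markers were detected, with a summed level of 2139000 to 2519000 normalized counts in NaCl/PBS mice and 2857000 to 3213000 in FeSO4/PBS mice, and 7 of 10 were called higher after FeSO4. Most of this sum was Alb, with a mean of 1626000 normalized counts in NaCl/PBS mice. The markers moved unequally after FeSO4, with means going from 19830 to 110400 for Tat, 154100 to 297900 for Fgb and 199600 to 208800 for Ahsg. The sum is therefore no measure of hepatocyte number. Of 10 neutrophil markers 6 were tested, 5 of them higher after FeSO4, with a summed level of 118 to 297 in NaCl/PBS mice and 760 to 914 in FeSO4/PBS mice. Of those 5, Retnlg, Cxcr2 and Ngp reached the test only through the FeSO4 mice, so the count follows in part from the filter. Of 10 markers of Kupffer cells and macrophages 9 were lower, with a sum of 10660 to 12000 falling to 6249 to 7133, and of 8 sinusoidal endothelial markers 5 were lower and 1 higher. Among the other lists, 1 of 3 tested monocyte markers was higher and 1 lower, 2 of 4 B cell markers were lower, 0 of 4 T and NK cell markers were called, 2 of 8 stellate cell and fibroblast markers were higher and 2 lower, 2 of 6 cholangiocyte markers were higher and 1 lower, and 1 of 3 mesothelial markers was lower. Of 6 pancreatic acinar markers 4 had no read in any library, and the 1 tested was not called. No marker of the hepatocyte, neutrophil, macrophage and endothelial lists was without reads in all 12 libraries, and in FeSO4 mice DEX called none of them. Tnfrsf1b is known to be expressed by leukocytes, and the part of neutrophils, macrophages and endothelial cells in the changes of the 10 genes was not tested.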

How the data were processed

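Livers of 12 mice in 4 groups of 3 were sequenced by the authors, who prepared stranded mRNA libraries and, per the labels, used FastQC, STAR 2.7.10b, DESeq2 and the mm39 build. The deposited values are raw counts of reads per Ensembl gene, without normalization, and the strand setting of the counting is not given in the sources used here. Of 55414 genes, 30401 had no count.

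From these counts, 1 edgeR quasi-likelihood model with 4 group means was fitted to the 12 libraries (R 4.3.3, edgeR 4.0.16, limma 3.58.1). It used TMM factors and the 13857 genes that passed filterByExpr at a minimum count of 10. P-values were adjusted over all tested genes by the Benjamini-Hochberg method (edgeR FDR), LFCs are on the log2 scale with a prior count of 0.125, and normalized counts are counts divided by the TMM effective library size and multiplied by its mean. The biological coefficient of variation was 0.169. TMM factors lay between 0.87 and 1.16. Depth was 16335651 to 23827340 counts per library, each group had 3 mice, and no 2 mice of a group agreed within sampling noise (chi-square per gene of 18.3 to 90.1). By this value, a mean over genes in which abundant genes weigh most, FeSO4/PBS mouse 1 stood apart from its group. Its values were 90.06 with mouse 2 and 71.65 with mouse 3, against 24.1 between mice 2 and 3. The highest value in another group was 37.18, between FeSO4/DEX mice 1 and 2.

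Symbols, exons and promoters came from GENCODE vM39 on GRCm39, which has the same coordinates as mm39 and is a later release than the annotation named in the study. Motifs were searched on both strands of 300 bases around the canonical start with Python 3.11.15. NF-kB and p53 motifs are given by name because their letters are degenerate. For the likeness of profiles a pseudocount of 0.5 was used.

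The 10 genes and all lists were chosen with earlier results of these data known. Named from the lists were genes fixed by role (Tnf, Fasl, Tnfsf10, Tnfsf12, Fadd, Tradd, Traf2, Cflar, Birc2, Birc3, Tnfaip3, Cyld, Bid, Gsdmd and Zbp1) and, in each list, the 2 largest called rises and falls after FeSO4 with a mean normalized count of at least 100 in the higher group. Other listed genes are named after their values were seen, because 5 or fewer of a list were called. Some genes of the lists are not reported here by name. For likeness the 2 closest genes were named, without Rik and Gm genes.

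Alternatives were DESeq2 1.42.0, its size factors in edgeR, library size in place of TMM, testing without the low-count filter or with a minimum of 10 counts per library, a replicate block, fits of the compared libraries alone, an LFC beyond 1 in size, and each mouse left out in turn. The alternatives for single genes of the lists were added after seeing the data. The qPCR, protein and survival experiments of the study were not analysed here.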

Additional observations from a re-analysis of the deposited data

Results flagged for a closer look

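In 1 of the 10 genes and 5 of the 89 tested pathway genes, the response to DEX differed between NaCl and FeSO4 mice by the interaction test of the edgeR model, in which 6.18% of all tested genes were called. Each difference below is the DEX LFC in FeSO4 mice minus that in NaCl mice.

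For Tnfrsf12a (Fn14) the difference was -0.97 ± 0.24 (SE, edgeR FDR = 0.0273), with DEX LFCs of 0.72 (NaCl mice) and -0.25 (FeSO4 mice). For Ticam1 (TRIF) it was -1.17 ± 0.20 (edgeR FDR = 0.00335), with LFCs of 0.90 and -0.27. For Nfkbia, the inhibitor of NF-kB and a known glucocorticoid target, it was -0.96 ± 0.22 (edgeR FDR = 0.0199), from 668, 946 and 633 normalized counts in NaCl/PBS mice and 1658, 1544 and 1645 in NaCl/DEX mice to 2154, 2879 and 2100 in FeSO4/PBS mice and 2449, 2875 and 2603 in FeSO4/DEX mice. For Tlr3 it was 1.37 ± 0.27 (edgeR FDR = 0.00907), with LFCs of -1.20 and 0.17. For Tnfsf10 (TRAIL) it was 1.64 ± 0.44 (edgeR FDR = 0.0409), with LFCs of -2.10 and -0.46, and for Casp9 1.18 ± 0.29 (edgeR FDR = 0.030), with LFCs of -0.99 and 0.19. Tnfsf10 was near the floor in FeSO4 mice, with 18, 16 and 7 reads with PBS and 14, 6 and 8 with DEX. Whether the low counts limited a further fall was not tested.

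All 6 genes changed after FeSO4 in the same direction as after DEX in NaCl mice, and both comparisons use the same NaCl/PBS mice. With each of the 12 mice left out in turn, the calls of Ticam1 and Tlr3 were kept 12 times of 12 (highest edgeR FDR 0.0115 and 0.0285). The call of Nfkbia was kept 9 times (highest FDR 0.0592), that of Tnfrsf12a 8 times (0.0851), that of Casp9 5 times (0.0862) and that of Tnfsf10 2 times (0.157).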

How the results depend on the processing

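Values of Tnfrsf10b, Ripk3, Tnf and Fasl, and of Tnfsf10 in FeSO4 mice, rest on few reads, and no refit at other depths was made. Of 137 refits of called LFCs of the 10 genes with another tool, scaling, filter, block or set of libraries, 129 kept the direction and the call, and of 240 with a mouse left out 226 did, and none reversed. In many of those 240 the mouse left out belonged to neither compared group, so that the LFC could hardly move. All 14 lost calls came from leaving out a mouse of the groups compared. Same-numbered mice are not stated to be paired, and their deviations correlated with -0.0919 to 0.129 over 18 pairs. With the replicate number as a block, 8 of the 10 genes were called higher after FeSO4 in PBS mice and 8 in DEX mice, 2 higher and 1 lower after DEX in NaCl mice, 0 after DEX in FeSO4 mice and 1 in the interaction, and over all tested genes 7268, 1754, 0, 5692 and 729 were called after FeSO4, DEX in NaCl mice, DEX in FeSO4 mice, FeSO4 in DEX mice and in the interaction. The block also lost the calls of Ltb after FeSO4 (edgeR FDR 0.0536) and Peli1 after DEX (0.0685). Over all tested genes, DEX in FeSO4 mice called 0, but 10 by DESeq2 and 170 without the low-count filter, and the interaction called 857, but 1309 by DESeq2 and 1459 without that filter. With a mouse left out, DEX in NaCl mice called 1187 to 2543 against 1892, and the interaction 537 to 1018. The highest counts, 2543 and 1018, both came without FeSO4/PBS mouse 1. Tnfrsf10b was not tested with at least 10 counts in every library. The number of the 10 genes called higher after FeSO4 was 5 with library size alone and 4 with an LFC beyond 1, and 1 was called lower with library size alone. After DEX in NaCl mice 1 was called higher with library size alone, 0 with an LFC beyond 1 and 1 to 3 with a mouse left out, and 0 lower with an LFC beyond 1. In FeSO4/DEX against NaCl/DEX, 5 were called higher with library size alone and 3 with an LFC beyond 1. Tnfrsf10b, tested only through the FeSO4 mice, is among the 4 and the 3 genes with an LFC beyond 1. In the interaction 0 were called lower with library size alone or an LFC beyond 1, and with a mouse left out 0 to 3 were called lower and 0 to 1 higher. In the lists, library size alone gave 8 lower checkpoint regulators, 1 higher and 10 lower caspases and pore formers and 3 higher and 8 lower partners of RIPK3 after FeSO4, and 6 lower checkpoint regulators and 1 higher and 5 lower partners of RIPK3 after DEX in NaCl mice. DESeq2 called 1 ligand lower after FeSO4, and DESeq2's size factors 1 checkpoint regulator lower after DEX.

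The LFCs whose sign turned were not called. Before the change they included 0.28 for Fas and 0.30 for Birc2 after FeSO4. With library size alone the LFC after FeSO4 was -0.041 for Fas, -0.022 for Birc2 and -0.26 for Birc3, that after DEX in NaCl mice -0.14 for Ripk1, and the interaction 0.060 for Ripk3. For Fas after DEX in NaCl mice it was 0.0064 by DESeq2, 0.0057 with its size factors and 0.0015 in the libraries compared, and for Ripk1 -0.00019 with at least 10 counts in every library. With a mouse left out, LFCs after DEX in NaCl mice ranged from -0.095 to 0.14 for Fas, -0.031 to 0.092 for Ripk1 and -0.20 to 0.12 for Ripk3, those after DEX in FeSO4 mice from -0.082 to 0.28 for Tnfrsf10b, -0.38 to 0.092 for Ripk3 and -0.23 to 0.042 for Casp8, that of FeSO4 in DEX mice from -0.097 to 0.0096 for Tnfrsf21, that after FeSO4 from -0.060 to 0.20 for Birc3, and interactions from -0.32 to 0.14 for Ripk3, -0.027 to 0.18 for Mlkl and -0.020 to 0.24 for Casp8. The cause was not tested.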

Other observations

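Some listed genes with low counts had large changes that the report counts without giving values. Tnfsf14, which encodes LIGHT, had 3.60, 16.8 and 3.39 normalized counts in NaCl/PBS mice and 55.4, 74.3 and 91.8 in FeSO4/PBS mice, with no overlap (LFC 3.25 ± 0.50, edgeR FDR = 0.000103, and 4.35 without NaCl/PBS mouse 2). Tnfrsf14, which encodes a receptor of LIGHT but not the only one, fell in the same mice, from 119, 121 and 123 normalized counts to 6.05, 31.5 and 21.7. Tnfrsf4 (OX40), a T cell costimulatory receptor, had 5.04, 4.68 and 8.46 normalized counts in NaCl/PBS mice and 28.2, 42.7 and 28.1 in FeSO4/PBS mice (LFC 2.43 ± 0.43, edgeR FDR = 0.000343), while 0 of 4 tested T and NK cell markers were called. Tnfsf14 and Tnfrsf4 had enough reads to be tested only through the FeSO4 mice, where they are high, so their calls give no support of their own. The choice of these genes was made with their values in view.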
